A study of Caenorhabditis elegans with 2 samples.

Results

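Divergent promoters are stretches of DNA from which a gene on the minus strand and a gene on the plus strand are transcribed away from each other. The peaks described here are the autosomal SMA-3 peaks in such stretches. An optimal peak not on the X chromosome was a member when its summit lay within 1000 bp upstream to 200 bp downstream of annotated start sites of protein-coding genes on both strands, and more than 100 bp from any tRNA gene. Of the 4205 optimal peaks, 585 met this rule, which is 13.9% of all peaks and 17.7% of the 3312 autosomal ones. They fell between 567 pairs of genes, taking the nearest start site on each strand, and their windows held 1176 genes.

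The data are chromatin immunoprecipitation sequencing of SMA-3 with an anti-GFP antibody in whole Caenorhabditis elegans hermaphrodites of the L2 larval stage, 24 hours after release from L1 starvation. There were 2 biological replicates of 1 group, so no condition was compared. The animals, of strain CS152, carried the sma-3(wk30) mutation and an integrated transgene, qcIs, that supplies gfp::sma-3 together with the rol-6 marker. SMA-3 in these animals therefore came from the transgene, and the labels do not name the promoter that drives it. The genotype label places GFP before sma-3, while a further note in the labels describes a tag at the C terminus, and the labels were not reconciled. No untagged immunoprecipitation was analysed here, so regions recovered by the antibody or from open chromatin irrespective of SMA-3 cannot be told apart from SMA-3 binding. Read depth is unknown.

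SMA-3 is a receptor-regulated Smad, a transcription factor that acts with SMA-2 and the co-Smad SMA-4 downstream of the BMP-like ligand DBL-1, a pathway best known in the worm for setting body size. The worm genome is compact, and neighbouring genes that point away from each other often share 1 short stretch of promoter DNA. Many worm transcripts are trans-spliced, so the annotated start of a gene can lie downstream of the place where transcription begins. A distance to a start site below is a distance to the annotated start.

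The sequences of 8 members show what lies under the summits. They were taken from pairs of high signal, from a pair of ribosomal protein genes with the summit at its centre, and from the BMP pathway. The pairs of high signal were not taken strictly by rank. Among others, nhl-2/tag-340, ifet-1/rps-1 and ska-3/rps-12 had higher signals than Y22D7AL.10/hsp-60 and are not shown. Each runs 75 bp to either side of the summit on ce11, 5′ to 3′ on the plus strand, so that the minus-strand gene lies to the left and the plus-strand gene to the right. Capitals mark matches, on either strand, to 8 short motifs: the Smad box GTCTG, its extended form CAGACA, the GC-rich Smad element GGCGC, the GA repeat GAGAGA, the E-box CACGTG, the GC box GGGCGG, the GATA motif GATAA and the TATA motif TATAAA. Every CAGACA match also holds a GTCTG match on the other strand. Over all 585 members such windows held CAGACA in 10.3% and GTCTG in 18.97%, and the 8 shown were not drawn to represent these shares.
rpl-15/K11H12.8, chrIV:654854-655004: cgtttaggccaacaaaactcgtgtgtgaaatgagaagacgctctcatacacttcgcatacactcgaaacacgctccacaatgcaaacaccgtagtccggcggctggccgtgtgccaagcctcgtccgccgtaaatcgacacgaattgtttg
rpl-20/Y17G9B.5, chrIV:4750007-4750157: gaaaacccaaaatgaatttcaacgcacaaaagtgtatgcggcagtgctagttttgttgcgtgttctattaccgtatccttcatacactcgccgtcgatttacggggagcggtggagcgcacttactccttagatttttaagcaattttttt
drr-2/set-16, chrIII:13643658-13643808: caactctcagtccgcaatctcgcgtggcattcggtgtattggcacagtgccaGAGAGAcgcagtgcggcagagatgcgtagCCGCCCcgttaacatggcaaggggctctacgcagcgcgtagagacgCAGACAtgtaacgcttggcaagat
Y22D7AL.10/hsp-60, chrIII:1619057-1619207: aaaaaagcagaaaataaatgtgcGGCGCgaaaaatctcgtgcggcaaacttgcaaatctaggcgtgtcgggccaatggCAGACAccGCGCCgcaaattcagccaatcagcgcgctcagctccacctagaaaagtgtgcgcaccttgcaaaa
rpl-39/rps-30, chrV:7776254-7776404: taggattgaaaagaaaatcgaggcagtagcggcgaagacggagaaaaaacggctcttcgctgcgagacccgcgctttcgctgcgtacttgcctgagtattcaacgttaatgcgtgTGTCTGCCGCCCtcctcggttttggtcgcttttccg
ugtp-1/sma-2, summit near sma-2, chrIII:8749521-8749671: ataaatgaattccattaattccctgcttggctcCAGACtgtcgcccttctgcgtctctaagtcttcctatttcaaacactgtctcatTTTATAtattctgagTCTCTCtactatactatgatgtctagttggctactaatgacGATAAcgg
ugtp-1/sma-2, summit near ugtp-1, chrIII:8748753-8748903: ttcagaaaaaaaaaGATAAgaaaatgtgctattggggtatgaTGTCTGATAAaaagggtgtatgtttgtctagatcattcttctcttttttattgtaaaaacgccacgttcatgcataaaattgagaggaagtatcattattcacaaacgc
srh-282/sma-10, chrIV:274259-274409: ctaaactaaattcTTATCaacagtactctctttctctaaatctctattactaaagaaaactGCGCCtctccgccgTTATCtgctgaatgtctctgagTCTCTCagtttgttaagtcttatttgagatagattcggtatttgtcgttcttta
The windows of rpl-15 and rpl-20, which encode proteins of the large ribosomal subunit, held none of the 8 motifs. The window between drr-2 and set-16 held the GA repeat, the GC box and the extended Smad box. That of hsp-60, which encodes the mitochondrial chaperonin, held the extended Smad box and the GC-rich Smad element, the latter on both strands. The window near sma-2 held the Smad box, the GA repeat, the TATA motif and the GATA motif. A match is a description of the letters and not of a binding site.

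Promoter peaks lay in divergent windows far more often than weak regions did. Of 1919 autosomal promoter peaks, 585 were divergent (30.5%, 95% exact interval 28.4 to 32.6%). Of 1446 promoter regions among the 6000 lowest-ranked regions of the pooled list, 86 were divergent (5.95%, 4.78 to 7.29%). The log2 odds ratio was 2.79 ± 0.18 (SE; Fisher's exact test, two-sided, p = 9.25e-78). Regions are counted here, not samples, so such p-values cover the counting of regions only. Per length of sequence, divergent windows held 265 peaks per Mb over 2.21 Mb, against 66.3 per Mb over 20.1 Mb of windows of genes on 1 strand, a ratio of 3.99 (exact binomial test, p = 6.42e-138). A divergent window covers the promoters of at least 2 genes, and the ratio is not corrected for that.

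The share rose with the authors' signal, a value per region that served only to rank and describe. In the lowest quartile of the optimal list 19.95% of autosomal promoter peaks were divergent, and in the other quartiles, from low to high, 28.1, 31.2 and 38.9%. Along the whole pooled list of 30000 regions the share fell from 35.3% in the first 2000 ranks to 5.59% in the last. By chromosome, 36.1% of promoter peaks on I were divergent, 34.9% on III, 30.1% on IV, 26.7% on V and 24.7% on II. These shares were not set against the share of divergent window on each chromosome.

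**Figure D1:**
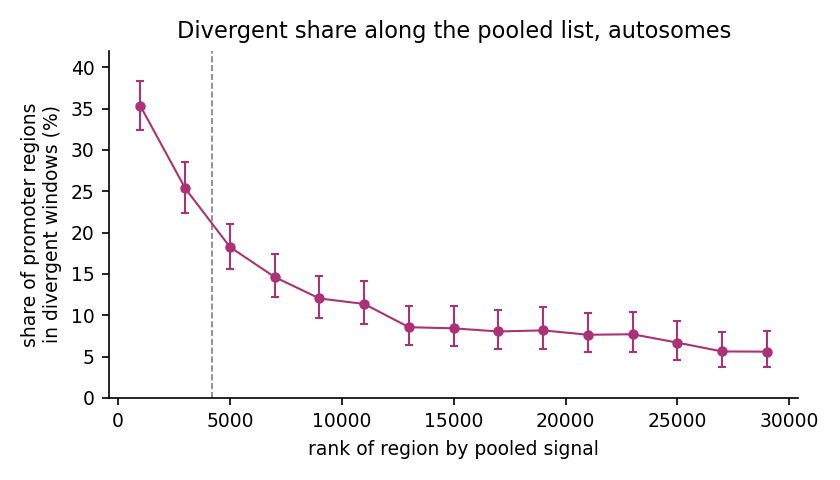
Share of autosomal promoter regions whose summit lies in a divergent window, by rank in the pooled list in bins of 2000 regions. Points are shares with 95% exact binomial intervals, and the dashed line marks the end of the 4205 optimal peaks. The share falls from 35.3% in the first bin to 5.59% in the last.

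Members had a median signal of 153 (lowest 70.4, highest 1496), and the 1334 autosomal promoter peaks in windows of genes on 1 strand had a median of 125. The highest quartile of all optimal signals, 187 or more, held 227 of 585 members (38.8%, 34.8 to 42.9%) and 356 of 1334 one-strand peaks (26.7%, 24.3 to 29.1%). This difference had a log2 odds ratio of 0.80 ± 0.15 (SE; Fisher's exact test, p = 1.60e-07).

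The summits sat in the gap itself. In 554 of 585 members (94.7%, 92.6 to 96.4%) the summit lay between the start sites, against 65 of 86 lowest-ranked divergent regions (75.6%, 65.1 to 84.2%; log2 odds ratio 2.53 ± 0.45 (SE), Fisher's exact test, p = 1.41e-07). Of the other members, 15 lay past the minus-strand start, 14 lay past the plus-strand start, and 2 had windows on both strands whose genes did not stand head to head. Part of these shares is set by the rule, because a summit in a gap over 1000 bp must lie between the starts. Such gaps held 53 of 585 members (9.06%) and 31 of 86 lowest-ranked regions (36.0%). The test thus mixes forced cases in unequal numbers, and shorter gaps were not tested alone. Only 39 member summits (6.67%) fell in an annotated exon, against 30 of the 86 lowest-ranked regions (34.9%). The gap between the start sites had a median of 499 bp in members, with an interquartile range of 320 to 751 bp and a whole range of 12 to 1771 bp. In the lowest-ranked divergent regions the median gap was 799 bp.

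**Figure D2:**
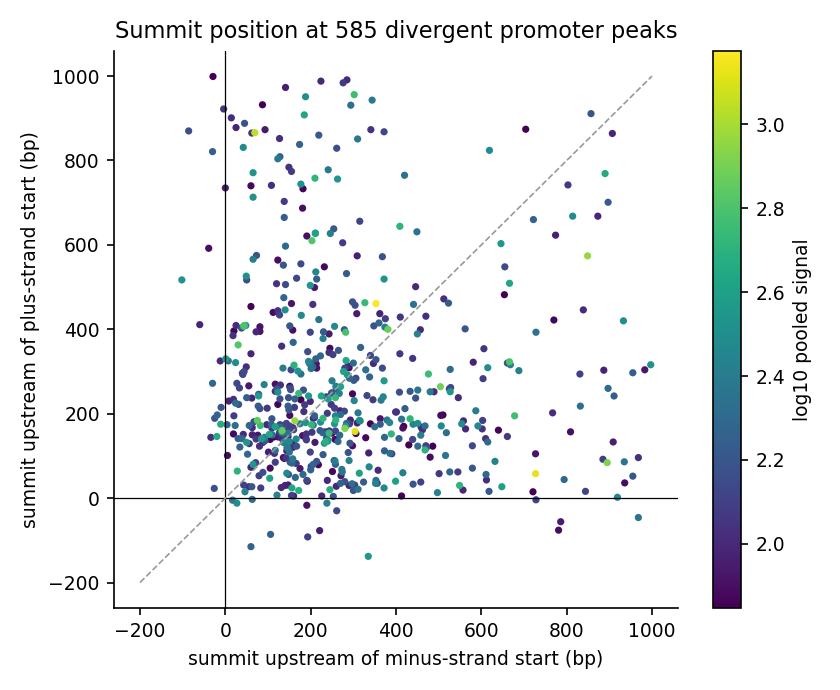
Position of the summit of each of the 585 members, as its distance in bp upstream of the minus-strand start (horizontal) and of the plus-strand start (vertical), coloured by log10 of the pooled signal. Negative values lie within the gene, the solid lines mark the start sites and the dashed line marks equal distance. Most points sit within the upper right quadrant, and the highest signals lie on both sides of the dashed line.

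The nearer start site was a median of 140 bp from the summit and the farther a median of 336 bp. One-strand promoter peaks were a median of 233.5 bp from their nearest start. The nearer distance of a member is the smaller of its distances on both strands, so it is short in part by construction. Taken by strand, member summits lay a median of 230 bp upstream of the minus-strand start and 202 bp upstream of the plus-strand start. In absolute terms, member summits lay a median of 79.5 bp from the midpoint of the gap and the lowest-ranked ones 165.5 bp, but the latter gaps were longer. Over gaps of every length, the middle 33.3% of the gap held 262 of 554 member summits (47.3%, 43.1 to 51.5%) and 30 of 65 lowest-ranked ones (46.2%, 33.7 to 59.0%; log2 odds ratio 0.06, 95% interval −0.68 to 0.80, Fisher's exact test, p = 0.896). Of the 30 lowest-ranked ones, 20 came from gaps over 1000 bp, where the rule itself keeps summits from either end. In such gaps the middle part held 22 of 53 member summits (41.5%) and 20 of 31 lowest-ranked ones (64.5%). In gaps of up to 1000 bp it held 240 of 501 member summits (47.9%) and 10 of 34 lowest-ranked ones (29.4%; log2 odds ratio 1.10, Fisher's exact test, p = 0.0495), a split chosen after the data were seen and close to the threshold. Among members, the middle part held 56.3% of summits in gaps of 301 to 500 bp and 32.1% in gaps of 701 to 1000 bp. As the gap widened, from 1 to 300 bp up to 1001 to 2000 bp, the median distance to the nearer start grew from 71 to 316 bp, and that to the farther start reached 873 bp. The nearer start was on the plus strand in 311 members and on the minus strand in 271 (53.4% on the plus strand, 49.3 to 57.5%; exact binomial test, p = 0.106).

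Seen from the genome, 568 of 2743 autosomal stretches shared by windows of both strands held a peak (20.7%). Of 2382 neighbouring head-to-head gene pairs up to 2000 bp apart, taken from the outermost annotated starts, 549 held a member peak (23.05%). The share was 19.4% (14.6 to 24.98%) for gaps of up to 200 bp and 37.9% (33.4 to 42.6%) for gaps above 200 and up to 400 bp. It was 20.8% (15.97 to 26.3%) at 801 to 1000 bp and 8.18% (4.43 to 13.6%) at 1201 to 1400 bp. Above 1000 bp the windows of the 2 genes overlap over less of the gap, so part of this fall is set by the rule.

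**Figure D3:**
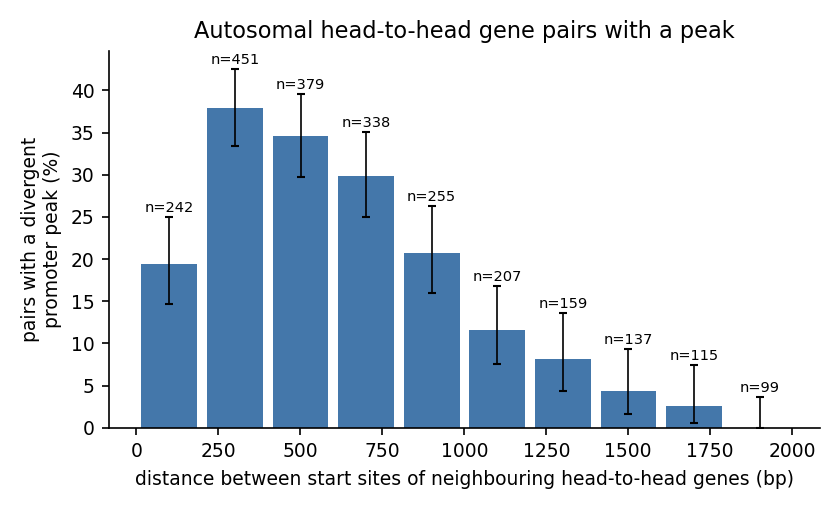
Share of neighbouring autosomal head-to-head gene pairs with a member peak, by the distance between their start sites in bins of 200 bp. Bars are shares, error bars are 95% exact binomial intervals and n is the number of pairs. The share is highest, at 37.9%, for gaps above 200 and up to 400 bp.

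At the edge of the rule, the member closest to the upstream limit, between dhp-1 and cpg-3, lay 999 bp from its farther start with a signal of 71.3, and the peak just outside, between zip-4 and nol-58, lay 1001 bp away with a signal of 134. A further 6 autosomal peaks were left out for lying near a tRNA gene, and 26 peaks on X met the rest of the rule.

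Members come from the optimal list, which equals the 4205 highest-signal regions of the list called from both replicates together and was itself derived from the replicate lists. Their recovery and their close signals and positions in the replicates are therefore in large part set by that choice, and are given as a description. Every member overlapped a region of replicate 2 and 582 of 585 overlapped one of replicate 1. Among the 4205 highest-signal regions of a replicate, 518 members were found in replicate 1 (88.5%), 565 in replicate 2 (96.6%) and 503 in both (86.0%, 82.9 to 88.7%). One-strand promoter peaks were in both for 1085 of 1334 (81.3%, 79.1 to 83.4%; log2 odds ratio 0.49 ± 0.20 (SE), Fisher's exact test, p = 0.0127). Members also had the higher signal, and within the upper 50% of the optimal list by signal the shares were 379 of 381 and 694 of 695, a log2 odds ratio of −1.61 (Fisher's exact test, p = 0.287). With 1 start site per gene the p was 0.0946, and with 50% reciprocal overlap it was 0.226, so the difference in recovery did not hold under these settings.

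Over the 582 members found in both lists, Spearman's rho between the replicates' signals was 0.89, which describes regions that share a control file. The summits of the 2 replicates were a median of 11 bp apart, and within 50 bp in 526 of 582. The nearer gene was the same in 550 of 579 members (94.99%). Where the distances to the 2 starts differed by 100 bp or more it was the same in 393 of 394, and where they differed by less in 157 of 185.

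Of the 15 members named by rank, 7 lay beside ribosomal protein genes, and further ones beside genes of translation. Between rpl-15 and K11H12.8 (WBGene00004427 and WBGene00019664, chrIV:654729-655101) the signal was 637 in replicate 1 and 875 in replicate 2, second in both lists. Its summit was 353 bp upstream of rpl-15 and 461 bp upstream of K11H12.8. Between rpl-20 and Y17G9B.5 (chrIV:4749901-4750245) the signal was 534 and 767, sixth in both lists, and the summit lay 304 bp from rpl-20 and 158 bp from its partner. Both pairs thus had a summit away from the ribosomal gene's annotated start.

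Beside iff-2 (chrII:8561290-8561628), which encodes the translation factor eIF5A, the signal was 477 and 651, and the summit lay 69 bp from iff-2 and 866 bp from F54C9.14. The peak between K01G5.10 and tasp-1 (chrIII:10759064-10759442), an orthologue of the protease taspase, had 538 and 807 and lay 58 bp from tasp-1. These summits lay close to 1 of the 2 starts, unlike those in the next pair. Between drr-2, which encodes an eIF4H-like translation factor, and set-16, which encodes a histone H3 lysine 4 methyltransferase of the MLL family (chrIII:13643569-13643918), the signal was 337 and 583 and the summit lay 163 and 183 bp from the starts.

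The peak between nhl-2, a TRIM-NHL protein that acts with microRNAs, and tag-340 (chrIII:4899718-4900119) had 359 and 569, in a gap of 1423 bp. That between rps-19 and hsr-9 (chrI:9625945-9626217) had 373 and 458, and that between the translational repressor ifet-1 and rps-1 (chrIII:4475515-4475812) had 317 and 454. The other members of the 15 lay between rps-15 and F36A2.9, ska-3 and rps-12, fbxb-85 and hex-3, rpl-12 and the DREAM complex gene lin-54, Y22D7AL.10 and hsp-60, and ndk-1 and F25H2.6. Their pooled signal ran from 637 to 746. In all 15, both replicates ranked the peak 81st or higher. The remaining one of the 15 is that of sma-2.

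Of 14 autosomal genes of the BMP pathway, 3 had a member peak (21.4%), where 1176 of 17138 autosomal genes did (6.86%). All 3 were among the 6 that are divergently arranged, of which the background share over all such genes was 21.6% (1176 of 5442). sma-2 encodes the Smad partner of SMA-3, and shares its promoter region with ugtp-1, which encodes a nucleotide-sugar transporter. This pair held 2 peaks in its gap of 979 bp. The stronger (chrIII:8749423-8749886) had a signal of 354 in replicate 1 and 490 in replicate 2, ranked 17 and 19, with its summit 84 bp upstream of sma-2. The weaker (chrIII:8748774-8748889) had 48.4 and 58.0, ranked 2308 and 2882, with its summit 127 bp upstream of ugtp-1. Each start site of the pair thus had its own summit, 768 bp apart.

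sma-10 encodes a transmembrane regulator of the pathway with leucine-rich and immunoglobulin-like domains. Its peak (chrIV:274219-274431) had 108 and 117, with the summit 86 bp from sma-10 and 935 bp from the chemoreceptor gene srh-282. unc-40 encodes the netrin receptor of the DCC and neogenin family. Its peak (chrI:5691607-5692006) had 50.7 and 96.0, 304 bp from unc-40 and 457 bp from npp-7, a nuclear pore gene. The pathway gene was the nearer in 3 of the 4 peaks, the exception being the weaker peak of the ugtp-1/sma-2 pair.

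Several groups of basic cell functions stood beside members at shares above the background of 21.6% of divergently arranged genes. Cytosolic ribosomal protein genes did so for 42 of 52 arranged genes (80.8%), chaperones for 17 of 21 (81.0%), splicing factors for 19 of 27 (70.4%) and proteasome subunits for 15 of 24 (62.5%). High shares were not particular to divergent promoters. Whatever their arrangement, 82.5, 79.3, 56.3 and 63.6% of the autosomal genes of these 4 groups had a promoter peak, against 14.1% of all autosomal genes. Other groups were also counted among arranged genes. Chromatin cofactors had 8 of 13, translation factors 14 of 23, the respiratory chain 13 of 23, mitochondrial ribosomal proteins 16 of 30 and the cell cycle 9 of 17. Vacuolar ATPase subunits, with 2 of 9 (22.2%), were at the background. Cuticle collagens had 7 of 46 (15.2%), nuclear hormone receptors 4 of 45 (8.89%) and chemoreceptors 7 of 288 (2.43%). These are counts with no test, and the lists were chosen with earlier results of these data known. The lists are also partial, so the counts are of listed genes. The gene rpl-7A, for example, had a member peak and is on no list. None of the marker genes of hypodermis, intestine, muscle, neurons, pharynx or germline had a member peak, and in each tissue at most 1 of them was divergently arranged. Markers on X could not be members, and of 4 hypodermal markers only 1 was autosomal. Whatever the arrangement, 1 hypodermal marker and 2 neuronal markers had a promoter peak.

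**Figure D4:**
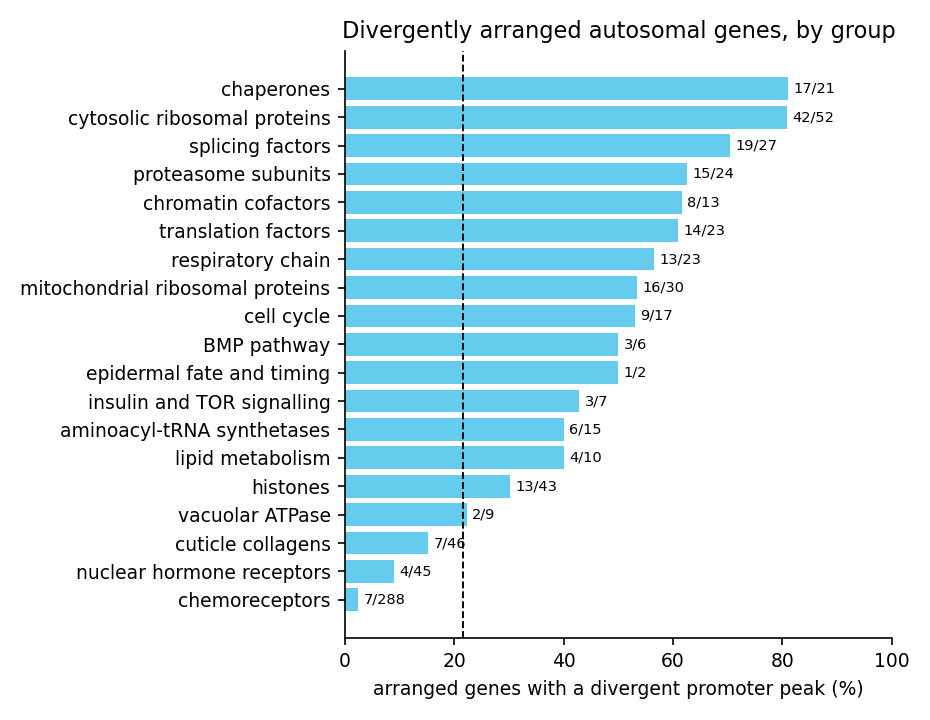
Share of divergently arranged autosomal genes with a member peak, for each of 19 gene groups, with the number of genes beside each bar. The dashed line is the share over all divergently arranged autosomal genes, 21.6%. Chaperones and cytosolic ribosomal proteins stand at 81.0 and 80.8%, and chemoreceptors at 2.43%.

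Arrangement itself differed between groups. Of 80 listed autosomal ribosomal protein genes 52 were divergently arranged (65.0%), of 47 listed histone genes 43 (91.5%), and of all autosomal genes 31.8%. As shares of the whole group, member peaks stood beside 52.5% of ribosomal protein genes and 27.7% of histone genes, against 6.86% of all autosomal genes. Among divergently arranged histone genes the share was 13 of 43 (30.2%), nearer to the 21.6% over all arranged genes.

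A gene of a group was often not the nearer of its pair. In the 36 peaks with a ribosomal protein gene on 1 side only, that gene was the nearer in 10, with medians of 316 bp to it and 177 bp to its partner. Among chaperones it was the nearer in 4 of 16, among splicing factors in 6 of 13, among proteasome subunits in 9 of 15 and among translation factors in 8 of 14. hsp-60 had the summit 610 bp away, and hsp-90, the cytosolic chaperone gene, had it 393 bp away. dnj-13, which encodes a J-domain co-chaperone, had it 195 bp away and its partner F54D5.9 678 bp away.

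In 13 members both sides belonged to the same group as listed. Of these, 6 were histone pairs, 3 were ribosomal, 3 were splicing pairs and 1 was a collagen pair. Pairs of the same group without a member peak were not counted. The ribosomal pairs were rps-14 with rpl-36 (signal 96.6 in replicate 1 and 207 in replicate 2), rps-10 with rpl-24.1 (137 and 150), and rpl-39 with rps-30 (67.1 and 94.2). The last had its summit 250 and 249 bp from the starts. The splicing pairs were rsp-2 with rsp-1 (89.7 and 147), snr-3 with rsp-5 (71.2 and 110) and snu-13 with rsp-7 (61.8 and 102), and the rsp genes encode SR proteins.

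The histone pairs ranged more widely. his-67 with his-68 had 211 and 278, whereas his-60 with his-59 had 34.1 and 44.3. Histone genes occur in near-identical copies, and the placing of reads that match several copies is not described, so their values are uncertain. htz-1, which encodes the histone variant H2A.Z and is not one of the clustered copies, had 212 and 281, with the summit 315 bp from htz-1 and 161 bp from wapl-1. The collagen pair col-117 with col-3 had 44.7 and 89.4.

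Other genes of the groups with a member peak include regulators of growth and of the cell cycle. rheb-1, which encodes the GTPase that activates TOR, had 146 and 194, with its summit 286 bp from rheb-1 and 292 bp from the kinase gene spk-1. ragc-1, which encodes a Rag GTPase, had 48.7 and 78.9. lin-35, the worm retinoblastoma gene, had 232 and 298 beside vps-51, and efl-1, an E2F gene, had 113 and 213 with the summit 188 bp from its start. lin-46, a heterochronic gene, had 2 members, but both summits were nearer to R186.8 (42 and 246 bp) than to lin-46 (831 and 627 bp). fat-6, which encodes a stearoyl-CoA desaturase, had 44.0 and 60.3. nhr-68 had 277 and 341, with its summit 407 bp from nhr-68 and 43 bp from H12C20.7.

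Most pairs had 1 peak, and 18 of 567 had 2. In 12 of these 18 the summits had different nearer genes, as at sma-2. The 2 summits were a median of 209.5 bp apart (199 to 768 bp), and 9 pairs had them 199 to 207 bp apart. The close set of spacings moved with these pairs, and the part of the peak caller in it was not tested. Over 500 bp apart were 6 pairs, among them ugtp-1/sma-2, ecps-1/atx-2 and larp-5/sld-2. fib-1, which encodes the nucleolar protein fibrillarin, had a summit 78 bp from its start with a pooled signal of 380, and its partner mut-15 had one 30 bp away with a signal of 94.7.

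The windows of 75 bp to either side of the summit differed from those of one-strand promoter peaks in 6 of the 8 motifs, by Fisher's exact test with Benjamini-Hochberg adjustment over the 8. GGCGC was in 36.9% of members and 25.9% of one-strand peaks (log2 odds ratio 0.75 ± 0.15 (SE), exact-test adjusted p = 1.21e-05), and in 12.8% of the lowest-ranked divergent regions. GGGCGG was in 12.3 and 8.77% (exact-test adjusted p = 0.0314). The other 4 were rarer in members. GAGAGA was in 21.5 and 31.8% (log2 odds ratio −0.76 ± 0.17 (SE), exact-test adjusted p = 1.58e-05), and CACGTG in 4.27 and 9.30% (−1.18 ± 0.32 (SE), exact-test adjusted p = 0.000242). GATAA was in 25.6 and 32.6% (exact-test adjusted p = 0.00507), and GTCTG in 18.97 and 23.4% (exact-test adjusted p = 0.0420). The call for GTCTG was lost in 6 of 9 alternative settings and that for GGGCGG in 4 of 9, so both rest on the settings used.

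The extended Smad-box CAGACA was in 10.3 and 12.9% (log2 odds ratio −0.37, 95% interval −0.81 to 0.08, exact-test adjusted p = 0.126), and TATAAA in 10.1% of both (95% interval of the log2 odds ratio −0.46 to 0.46, exact-test adjusted p = 1.00). Over all 3312 autosomal optimal peaks the shares were 24.7% for GTCTG, 13.2% for CAGACA, 25% for GGCGC, 32.3% for GAGAGA, 9.30% for CACGTG, 9.15% for GGGCGG, 33.4% for GATAA and 9.12% for TATAAA. The windows had similar base content, with a median GC of 41.7% in members and 42.4% in one-strand peaks, and 35.8% in the lowest-ranked divergent regions. At least 1 of the 3 Smad motifs was in 293 members (50.1%). That share was not counted in other regions, so it does not set members apart. Singly, GTCTG (18.97%) and CAGACA (10.3%) were no more frequent in members than over all autosomal peaks. In the lowest-ranked divergent regions GTCTG was in 20.9% and CAGACA in 9.30%, near the shares of members. GGCGC was in 12.8% there, against 36.9% of members. Within the upper 50% of the optimal list by signal, 2 of the 8 motifs passed, the GA repeat and the E-box. GGCGC was there in 37.3% of members and 32.4% of one-strand peaks (log2 odds ratio 0.31, exact-test adjusted p = 0.284), and the log2 odds ratio of GATAA was −0.26 (exact-test adjusted p = 0.354).

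The mean base composition to either side of the summit was mirrored. On the plus strand, the 100 bp on the side of the minus-strand gene held more adenine than thymine, a mean difference of thymine minus adenine of −8.36 percentage points. The 100 bp on the side of the plus-strand gene had a difference of 8.55. Read outward from the summit along the coding strand, both sides thus held more thymine on average. In the lowest-ranked divergent regions the differences were −2.59 and 0.98. Single members varied, and 469 of 585 (80.2%, 76.7 to 83.3%) had the higher value on the plus-gene side, against 47 of 86 lowest-ranked regions (54.7%, 43.5 to 65.4%). Both signs at once, negative on the minus-gene side and positive on the plus-gene side, were found in 314 members (53.7%) and 28 lowest-ranked regions (32.6%). In 379 members with both starts at least 100 bp from the summit, so that neither flank reached either gene's annotated start, the differences were −8.87 and 8.34. One-strand peaks had 9.38 toward their gene and 2.07 away from it. This comparison was chosen after its values were seen and has no test.

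**Figure D5:**
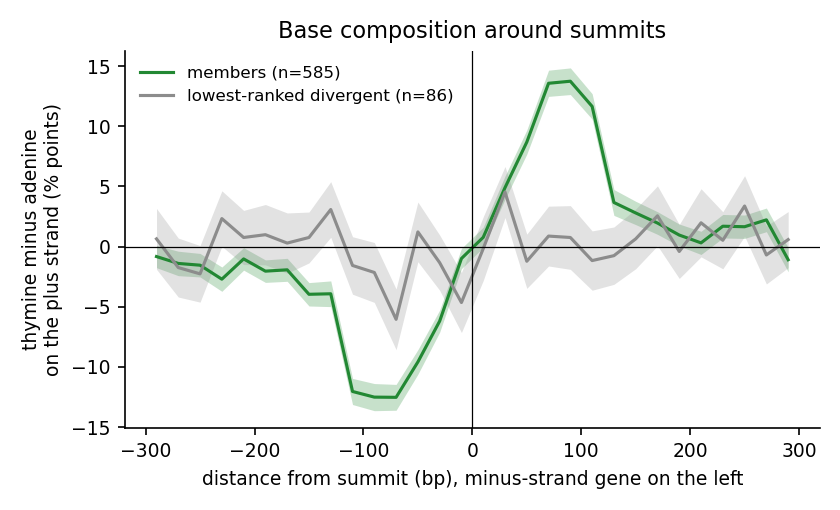
Thymine minus adenine on the plus strand, in percentage points, in bins of 20 bp up to 300 bp from the summit, with the minus-strand gene on the left. Lines are means over the 585 members (green) and 86 lowest-ranked divergent regions (grey), and bands are ± 1 SE over regions. In members the mean is lowest at −12.5 and highest at 13.7, within 100 bp of the summit on either side.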

How the data were processed

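SMA-3 was measured by GFP chromatin immunoprecipitation in 2 biological replicates of 1 group. Per the deposited listing, regions were called for each replicate and for both together against 1 shared control file, and the optimal list came from an irreproducible discovery rate procedure. The sources used here name no aligner, caller or threshold and give no read depth. The deposited signal value per region has no stated scaling and served only to rank and describe regions within a list. The deposited −log10 q and summit offset (an other kind of value, in bp) came with each region, and the offset gave the summit. Lists on ce11 were used, and those on ce10 were not.

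Start sites (29314, of 19973 protein-coding genes) and 612 tRNA genes came from Ensembl release 115, assembly WBcel235, the assembly of ce11. Sequence came from RefSeq of that assembly, and every region ended within its chromosome. Members, lists, motifs and tests were chosen with earlier results of these data known. The tests were 7 comparisons of shares or densities and 8 motifs, all two-sided. Adjusted over the 7, the exact test of recovery had p = 0.0178. Intervals are 95% exact (Clopper-Pearson) for shares and normal for log2 odds ratios, and cover counting only. A member was recovered when it overlapped, by at least 1 bp, one of the 4205 highest-signal regions of a replicate.

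Named pairs are the 15 members of highest signal recovered in both replicates, all BMP genes, up to 3 genes of every other list and all pairs within 1 list. Other pairs, among them those with 2 peaks and those at the limit of the rule, were chosen after their values were seen. Classifier and tests were checked on simulated data. Computations used Python 3.11.15, numpy 2.4.6, pandas 2.3.3, scipy 1.17.1 and matplotlib 3.10.9.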

Additional observations from a re-analysis of the deposited data

How the results depend on the processing

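The 16 results, which are 7 comparisons, the count of motifs and the 8 motifs, were recomputed under 16 alternatives. Of the 139 values, 113 were taken as kept. For comparisons and single motifs this means that direction and side of the threshold both stayed the same. The count of motifs has neither, and counts of 4 to 7, against 6, were taken as kept. The divergent share, the density, the summits between the starts, the nearer strand and the top quartile by signal kept both under every alternative run for them. The log2 odds ratio of the divergent share ranged from 2.56 to 3.55 and the log2 ratio of the density from 1.90 to 2.49. The middle 33.3% of the gap had a log2 odds ratio near 0 (0.06), and its sign was not stable. It was −0.16 with 1 start site per gene, −0.36 against the 3000 lowest-ranked regions, 0.015 without replicate 1 and −0.041 without replicate 2, none past the threshold. It was 1.10 and past the threshold within gaps of up to 1000 bp, a setting chosen after seeing the data. Recovery in both replicates did not keep its call. Its log2 odds ratio of 0.49 became 0.35 with 1 start site per gene, 0.18 with 50% reciprocal overlap and −1.61 in the upper 50% of the optimal list by signal, where both shares were above 99% and few peaks could differ. The count of motifs that passed fell from 6 to 2 in that part of the list. It holds fewer regions, and the log2 odds ratios of GGCGC (0.31, from 0.75) and GATAA (−0.26, from −0.49) were also smaller there. The cause was not tested. Among single motifs, GTCTG lost its call in 6 of 9 alternatives, GGGCGG in 4, and GGCGC and GATAA in 1 each, while CAGACA gained one with a window of 100 bp to either side. GAGAGA and CACGTG kept theirs in all 9. TATAAA, never past the threshold, had log2 odds ratios of −0.17 with a promoter window of 500 bp, −0.12 with 1 start site per gene, −0.037 and −0.025 with windows of 50 and 100 bp, 0.091 without replicate 1 and −0.11 without replicate 2. With 1 replicate's highest regions in place of the optimal list, the results past the threshold stayed past it except for the motifs GTCTG and GGGCGG, and recovery was not run. No paired analysis was possible because there is 1 group and the results come from shares of regions. Read depth is unknown, so no limit of detection could be given.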

Other observations

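Among the 2080 words of 6 letters, counted on both strands in the 75 bp to either side of each summit, those whose share differed most between members and one-strand promoter peaks were of 2 kinds. These words were picked as the extremes, so they are described with no test. Runs of adenine and thymine were more frequent in members than in one-strand peaks. AAAAAT was in 60.2% of members, 44.2% of one-strand peaks and 53.5% of the lowest-ranked divergent regions, and AAAAAA in 52.8, 37.2 and 40.7%. Not all such words were more frequent in members than in the lowest-ranked regions. AAAATT was in 48.0, 32.2 and 47.7%, and ATTTTA in 29.4, 18.4 and 39.5%. A further word of the 10 most shifted, GCGCAC, was in 21.4% of members, 11.1% of one-strand peaks and 2.33% of the lowest-ranked divergent regions. The words most depleted were AGAAGA, in 10.4% of members and 21.7% of one-strand peaks, GAGAGA, in 21.5 and 31.8%, and TGATAA, in 8.38 and 17.99%.

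GC content also peaked at the summit. It averaged 52.3% over the 20 bp to the left of the summit and 51.8% over those to the right, and was lowest at 29.4 and 29.1% in bins 120 to 140 and 100 to 120 bp away.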
